A study of Homo sapiens with 72 samples.

Results

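The loss of mRNA over 3 h of transcription block was compared between A375 cells, a human melanoma cell line, that had received siRNAs against CTU2 (siCTU2) or the control siRNA against GL2 (siGL2, firefly luciferase). This comparison took 12 of the 72 libraries of the series, 3 for each of 4 groups: siCTU2 and siGL2 cells harvested at 0 h and at 3 h in the arm called T. All cells were transfected for 42 h, kept in medium with glutamine, and then given triptolide (25 µM). This drug stops transcription by RNA polymerase II, so that mRNA made before the block is followed. The TCHX arm, used below for comparison, received triptolide together with cycloheximide (100 µg/ml), which stops translation elongation. The 0 h libraries were harvested as soon as the drugs were added. CTU2 was targeted by a pool of 2 siRNAs, whereas the control was a single siRNA. RNA came from the cytoplasmic fraction, and libraries were made from mRNA 3′ ends, with one count per read assigned to a gene. The labels number the replicates but do not say whether these were separate cultures, so p-values measure the spread between these libraries, which may be technical.

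CTU2 works together with CTU1 in the last step of adding sulphur to the wobble uridine of the tRNAs that read AAA, GAA and CAA codons (lysine, glutamate and glutamine). The sulphur reaches it through MOCS3 and URM1, and the thiolated tRNAs decode these codons efficiently. An mRNA that is translated slowly can be degraded earlier, and the study depleted CTU2 to ask whether this would resemble the effect of MAPK inhibitors on a subset of mRNAs. As general background on the tool, the guide strand of an siRNA cuts the mRNA that it matches along its whole length. Through its seed, the bases at positions 2 to 8 of the guide, it can also pair with many other mRNAs and lower them, as a microRNA does.

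The guides are shown because matches to their seeds are described beside the results. They are written 5′ to 3′ as RNA, with the seed in capitals.
siCTU2#1: uUGGUCAUgagcuugauag
siCTU2#2: aAGUCCUUcauguucacgc
siGL2: uCGAAGUAuuccgcguacg
The sense strand of siCTU2#1 matched all 19 bases of a site in coding exon 8 of the 15 exons of CTU2 (GRCh38, chr16:88713389-88713407, plus strand). That of siCTU2#2 matched all 19 bases of a site in coding exon 13 (chr16:88714907-88714925, plus strand).

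The 12 libraries held between 7650793 and 14009987 counts and detected 16039 to 17449 genes. Counts were divided by a size factor from stable genes, those whose share of the library rose during the block, and are called normalised counts here. A change over 3 h is the log2 ratio of 3 h to 0 h, and the interaction is the siCTU2 change minus the siGL2 change, so that a negative interaction means a steeper fall in siCTU2 cells. One library of the experiment went against its label. In the library labelled siCTU2 TCHX 5 h replicate 3, CCT3 stood at 2930 normalised counts and CTU2 at 99.3, against 7.83 and 10.8 (CCT3) and 1.96 and 1.54 (CTU2) in replicates 1 and 2. It belongs to none of the groups compared here, but it took part in the choice of the 198 stable genes. Values without it are therefore given as well (148 stable genes). The siGL2 TCHX 5 h library of replicate 3 had a low total (5987692 counts) and also differed from its replicates. Its CTU2 stood at 122.8 normalised counts against 290.6 and 233.9 in replicates 1 and 2, and its CCT3 at 4118 against 6420 and 5518. That siGL2 library stayed in the choice of the 148 stable genes and in the fit to 35 libraries given below. Of 14 melanoma markers, 12 in the siCTU2 and 11 in the siGL2 groups reached a group mean of 1 CPM. CPM are counts scaled to the library total. The summed level of the melanoma markers was 856.5 to 1586 CPM. MLANA and TYR stayed below 1 CPM in every group, at most 0.32 and 0.70. Of 14 markers of other cell types, 3 (KRT8, KRT18 and CD68) reached 1 CPM, and KRT18 had group means of 153.9 to 169.7 CPM. CDH1, KRT5, CD3E and HBB were at 0 in all 12 libraries.

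CTU2 itself was low before the block. In siGL2 cells it had 267, 284.2 and 291.7 normalised counts at 0 h and 293.9, 343.7 and 253.5 at 3 h. In siCTU2 cells it had 40.81, 13.18 and 17.71 at 0 h and 6.902, 5.673 and 6.099 at 3 h. All siCTU2 libraries lay below all siGL2 libraries, and the siCTU2 libraries fell further still over 3 h while the siGL2 libraries of both times overlapped. The interaction was -1.94 ± 0.45 (log2, SE, edgeR adjusted p = 0.0329). That call rested on few counts and was lost when any 1 of 9 of the 12 libraries was left out (values from -2.23 to -1.38, highest edgeR adjusted p = 0.212).

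Most mRNAs fell alike in both conditions. The median gene changed by -0.55 in siCTU2 and by -0.47 in siGL2 cells (log2), and the median interaction over the 12975 genes tested was -0.05. At an edgeR adjusted p under 0.05, 86 genes fell further in siCTU2 cells (0.663% of those tested) and 22 fell less (0.17%). The number of calls rested on single libraries and on the scale. It was 23 without replicate 1, 68 without siGL2 0 h replicate 3, 70 without siGL2 3 h replicate 1, and 0 (414 before adjustment) when the spread came from all 36 libraries of the siRNA experiment. With the 8 stable genes that rose at both times, 26 fell further and 33 fell less. With the stable genes chosen without the library that went against its label, 63 fell further and 23 fell less, and 85 of these genes were among the 108 called above. The 86 genes had a median interaction of -1.13 (range -3.13 to -0.59). Their median change was -1.84 in siCTU2 and -0.55 in siGL2 cells, and 74 of them passed the test for a fall in siGL2 cells as well. The 22 genes had a median interaction of 1.55 (range 0.80 to 3.64), with a median change of -3.30 in siGL2 and -1.42 in siCTU2 cells. The siGL2 change is part of the interaction that chose them, so a steep fall there is partly built in. In cells with glutamine and no siRNA, their median change over 3 h was -1.545 (TMM), against -0.002 for all genes. That lay nearer to the siCTU2 value (-1.42) than to the siGL2 value (-3.30), though on another scale. On the scale used here, the medians of all genes were -0.55 in siCTU2 and -0.47 in siGL2 cells. Why the fall was steepest in siGL2 cells was not tested.

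**Figure D1:**
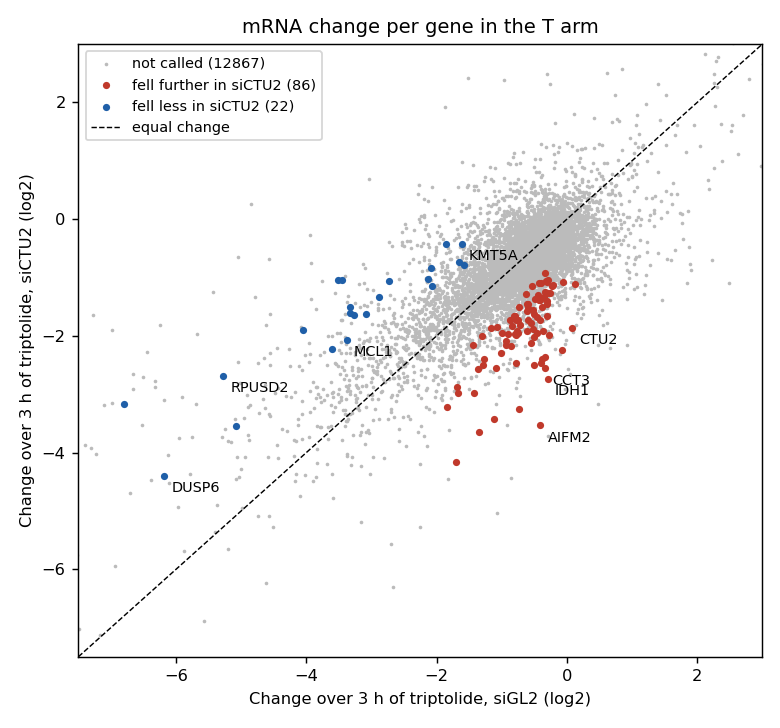
Change of each gene over 3 h of triptolide (log2 of 3 h over 0 h) in siGL2 cells (horizontal axis) and siCTU2 cells (vertical axis); each point is 1 of 12975 genes, 145 of them outside the axes, and the dashed line marks an equal change. The 86 genes that fell further in siCTU2 cells lie below the line, with a median change of -0.55 in siGL2 cells against -0.47 for all genes. The 22 that fell less lie above it among mRNAs that fell steeply in siGL2 cells. The siGL2 change is part of the interaction that chose both sets.

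Among the mRNAs that fell further, CCT3, a subunit of the chaperonin that folds actin and tubulin, had the smallest p. Its normalised counts in siGL2 cells were 7102, 7094 and 6542 at 0 h and 5602, 5706 and 5176 at 3 h. In siCTU2 cells they were 623.8, 584.7 and 622.1 at 0 h and 112.2, 70.92 and 123.3 at 3 h. The siCTU2 cells thus began lower and kept 16.7% of their CCT3 mRNA, while siGL2 cells kept 79.5%, and no groups overlapped. The interaction was -2.23 ± 0.17 (log2, SE, edgeR adjusted p = 1.321e-07), and it kept its call without any single library of the 12.

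AIFM2, an oxidoreductase that protects cells from ferroptosis, had the steepest fall of the 12 named genes. It had 681.3, 800 and 759.1 normalised counts in siGL2 cells at 0 h and 535.5, 582.7 and 572.1 at 3 h. In siCTU2 cells it went from 91.82, 68.3 and 72.94 to 2.588, 12.29 and 5.421. The groups did not overlap, and the siCTU2 libraries at 3 h were spread widely around a few counts. The interaction was -3.13 ± 0.34 (edgeR adjusted p = 1.51e-05).

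ELK3, a transcription factor of the ETS family, fell in siCTU2 cells from 304.6, 252.8 and 248 to 35.37, 49.17 and 58.28 normalised counts. In siGL2 cells it went from 1415, 1486 and 1206 to 1147, 1019 and 931. Again every siCTU2 library was below every siGL2 library, and the interaction was -2.07 ± 0.21 (edgeR adjusted p = 8.496e-06). G3BP2, a stress granule protein, went from 115.1, 88.67 and 141.7 to 33.65, 15.13 and 18.97 in siCTU2 cells. In siGL2 cells it went from 1487, 1518 and 1435 to 1203, 1168 and 1143, so that the control kept 79.1% and the siCTU2 cells 19.6% (interaction -2.02 ± 0.26, edgeR adjusted p = 0.0001139). IDH1, the cytosolic isocitrate dehydrogenase, went from 83.08, 38.34 and 84.4 to 12.08, 16.07 and 4.066 in siCTU2 cells. Its siGL2 values were 903.1, 890.4 and 861.8 at 0 h and 808.2, 687.4 and 663.3 at 3 h (interaction -2.44 ± 0.38, edgeR adjusted p = 0.0009423), and its call was lost without replicate 1 (-2.36, edgeR adjusted p = 0.143). CCT3, G3BP2 and IDH1 come from a list of 5 genes that was drawn up on these libraries for a lowered or raised level in siCTU2 cells at 0 h. It is therefore no independent evidence of their direction.

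PHC2, a Polycomb group protein, began nearer to the control. Its normalised counts were 1022, 980.1 and 1010 in siCTU2 cells at 0 h and 223.5, 221.3 and 225 at 3 h. The siGL2 libraries went from 1412, 1666 and 1444 to 896.8, 863.6 and 719. The 3 siCTU2 libraries at 3 h were close together and all below the control (interaction -1.30 ± 0.15, edgeR adjusted p = 4.233e-05). Also among the genes with the smallest p in this direction were DDI2 (a protease), PLEKHA3, C11orf24, BLOC1S2, B3GNT5 (a glycosyltransferase) and CKAP4. Their interactions ranged from -2.52 for B3GNT5 to -1.12 for CKAP4. CKAP4 lost its call without replicate 1 (-0.95, edgeR adjusted p = 0.0648).

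**Figure D2:**
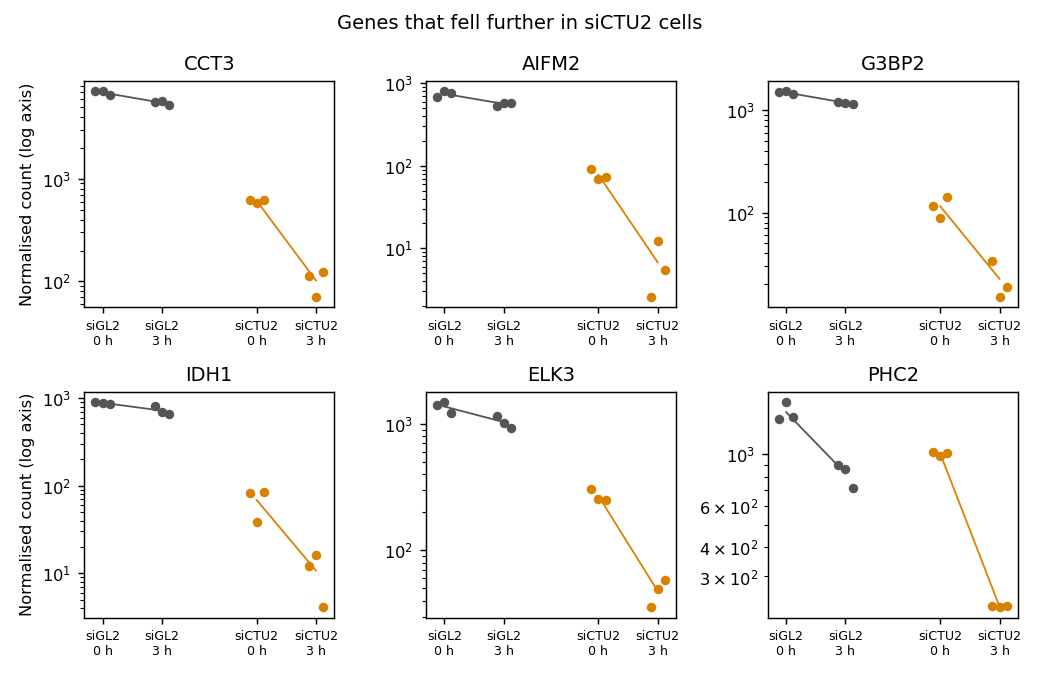
Normalised counts (log axis) of 6 genes that fell further in siCTU2 cells; each point is 1 library, 3 per group, and lines join the group means at 0 h and 3 h. The siCTU2 libraries began below the siGL2 libraries for each gene, and CCT3 kept 16.7% of its mRNA there against 79.5% in siGL2 cells.

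The 22 mRNAs that fell less held several that are known to be short-lived. RPUSD2, a putative pseudouridine synthase, went from 296.2, 206.9 and 232.2 to 6.039, 4.406 and 8.291 normalised counts in siGL2 cells. In siCTU2 cells it went from 462, 417 and 498.1 to 58.67, 76.59 and 77.93. The siCTU2 cells kept 15.5% and the siGL2 cells 2.55%, with no overlap at either time (interaction 2.59 ± 0.36, edgeR adjusted p = 0.0002285). The siGL2 libraries at 3 h held only 6, 4 and 7 raw counts, so the size of this difference is uncertain.

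DUSP6, the phosphatase that inactivates ERK, was among the fastest to disappear in both conditions. Its siGL2 libraries went from 3223, 3471 and 3205 to 50.33, 55.08 and 29.61 normalised counts. In siCTU2 cells it went from 5234, 4064 and 4350 to 146.7, 277 and 223, all above the control (interaction 1.78 ± 0.26, edgeR adjusted p = 0.0004994). MCL1, an anti-apoptotic protein, went from 2355, 2576 and 2115 to 186.2, 337.1 and 152.8 in siGL2 cells. In siCTU2 cells it went from 4702, 4906 and 4516 to 956.8, 1380 and 1044, so that 23.9% was left against 9.60% (interaction 1.32 ± 0.25, edgeR adjusted p = 0.006844). Without replicate 1 its interaction was 1.29 and the call was lost (edgeR adjusted p = 0.3).

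ID1, an inhibitor of DNA binding by helix-loop-helix factors, differed from these in its starting level. It was lower in siCTU2 cells at 0 h (456.2, 473.3 and 452.2 normalised counts) than in siGL2 cells (1533, 1517 and 1396). At 3 h the groups overlapped, at 41.41, 48.22 and 30.49 in siCTU2 and 54.35, 44.06 and 30.8 in siGL2 cells. The interaction of 1.54 ± 0.25 (edgeR adjusted p = 0.001346) therefore came with equal levels at the end, and the call was lost without replicate 1 (1.69, edgeR adjusted p = 0.0524) and without replicate 2 (1.41, edgeR adjusted p = 0.0631). ZBTB7A, a transcriptional repressor, kept 45.4% in siCTU2 and 23.8% in siGL2 cells (interaction 0.93 ± 0.14, edgeR adjusted p = 0.0007363), and its call was lost without replicate 1 (0.93, edgeR adjusted p = 0.11). The other named genes of this direction were IMP3, BAMBI, TICAM1, MOCS3, KMT5A, ZNF768 and ISG20L2. Each of these lost its call without at least 1 replicate number.

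**Figure D3:**
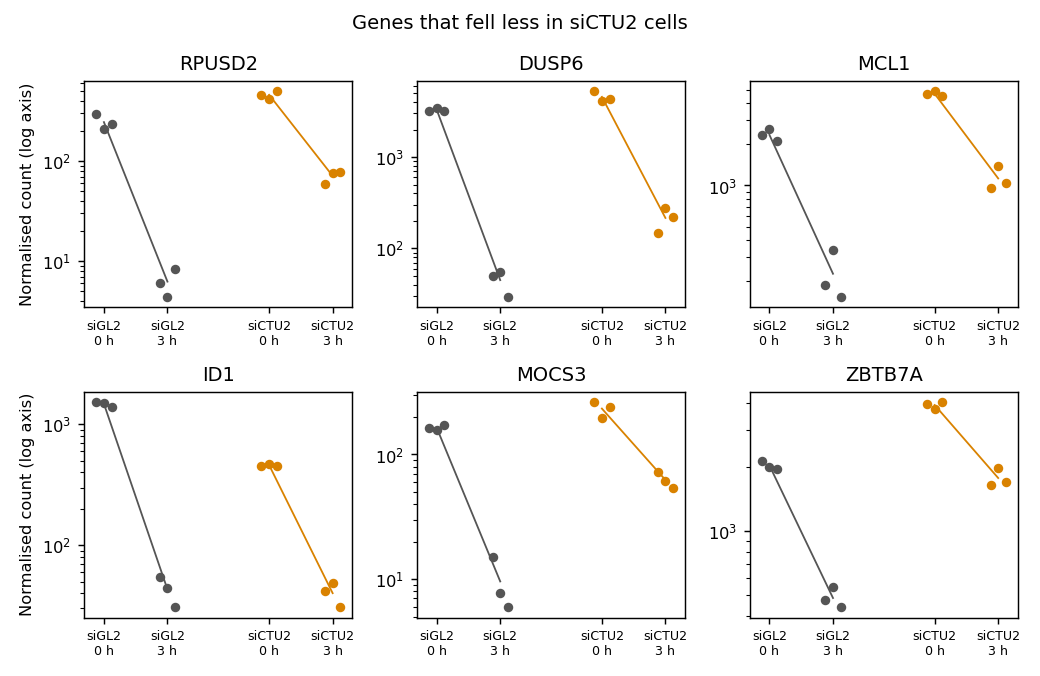
Normalised counts (log axis) of 6 genes that fell less in siCTU2 cells; each point is 1 library, 3 per group, and lines join the group means at 0 h and 3 h. RPUSD2, DUSP6 and MCL1 stood above the control at 3 h, while ID1 began lower in siCTU2 cells and ended within the range of the siGL2 libraries.

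Of 17 genes of the wobble uridine pathway tested, 1 fell less (MOCS3) and 1 fell further (CTU2 itself). Over all genes, 0.17% and 0.663% were so called. The median interaction of the 17 was -0.09 against -0.05 for all genes. Of the 17, 13 were below 0, as were 7730 of all 12975 genes. At an unadjusted p under 0.05, 2 fell less and 1 fell further. MOCS3, which passes sulphur to URM1, went from 163.4, 155.9 and 172.7 to 15.1, 7.711 and 5.922 normalised counts in siGL2 cells and from 263.8, 196.5 and 240.7 to 72.47, 61.46 and 53.54 in siCTU2 cells. The groups did not overlap at either time (interaction 2.15 ± 0.37, edgeR adjusted p = 0.00288), but the call was lost without replicate 2 (1.94, edgeR adjusted p = 0.0866). The siGL2 libraries at 3 h held only 15, 7 and 5 raw counts of MOCS3. Its change was -4.05 in siGL2 and -1.90 in siCTU2 cells, and -1.85 (TMM) in cells with glutamine and no siRNA. The 3′ UTR of MOCS3 held 1 match to the seed of siGL2, whose part in the change was not tested. CTU1, the partner of CTU2, had 348.3, 309.1 and 313.7 normalised counts in siCTU2 cells at 0 h and 245.9, 253.4 and 283.3 at 3 h. Its interaction was 0.61 ± 0.21 and did not pass the test (edgeR adjusted p = 0.329).

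Among the lists of short-lived mRNAs, 1 of 27 immediate early genes fell less (MCL1) and none fell further, with a median interaction of 0.27. By the unadjusted p under 0.05 there were 3 that fell less and 2 that fell further, and DESeq2 called 3 that fell less. Among all 12975 genes, 0.17% were called to fall less and 0.663% to fall further, or 2.31% and 4.72% before adjustment. DESeq2 called 39 of them to fall less and 135 to fall further. JUN, part of the AP-1 factor, went from 269.9, 424.1 and 253 to 9.059, 17.62 and 8.291 normalised counts in siGL2 cells and from 1137, 1117 and 846.1 to 18.98, 38.77 and 32.53 in siCTU2 cells. Its steep loss was present in both conditions, and its interaction of -0.35 ± 0.45 did not pass the test (edgeR adjusted p = 0.994). JUNB and IER2 had interactions of 1.28 ± 0.35 and 0.78 ± 0.21 without passing (edgeR adjusted p = 0.114 and 0.115). DKK1, a secreted inhibitor of Wnt signalling from the list of 5 genes above, was higher in siCTU2 cells at 0 h (864.3, 1020 and 657.5 normalised counts, against 16.05, 20.4 and 11.91 in siGL2 cells). Its interaction had a fitted value of -0.86 ± 0.83 that did not pass either (edgeR adjusted p = 0.973).

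Of 20 genes in the feedback of ERK signalling, 2 fell less (DUSP6 and DUSP5, which both encode phosphatases of ERK) and 1 fell further (SPRED1, an inhibitor of RAS signalling). DUSP5 went from 253.9, 301.7 and 312.6 to 35.23, 17.62 and 16.58 normalised counts in siGL2 cells and from 447.5, 444.5 and 415.8 to 81.1, 109.7 and 90.13 in siCTU2 cells. Its interaction was 1.39 ± 0.30 (edgeR adjusted p = 0.022), and the call was lost when any 1 of 8 of the 12 libraries was left out (highest edgeR adjusted p = 0.0815). SPRED1 went from 1879, 1819 and 1761 to 1062, 1129 and 910.9 in siGL2 cells and from 1491, 1319 and 1386 to 378.7, 487 and 457.4 in siCTU2 cells, an interaction of -0.85 ± 0.15 (edgeR adjusted p = 0.00456) that lost its call without replicate 1 (-0.71, edgeR adjusted p = 0.376). The median of this list was -0.06, and at an unadjusted p under 0.05 there were 3 that fell less and 6 that fell further. The shares over all genes were 0.17% called to fall less and 0.663% to fall further, or 2.31% and 4.72% before adjustment.

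A list of 25 other short-lived mRNAs held ID1, which fell less, and MDM2, the ubiquitin ligase of p53, which fell further. MDM2 went from 1349, 1154 and 1383 to 833.4, 760.1 and 743.8 normalised counts in siGL2 cells and from 1032, 977.8 and 1003 to 300.2, 396.2 and 359.2 in siCTU2 cells. Its interaction was -0.78 ± 0.16 (edgeR adjusted p = 0.0138), and it lost its call without any 1 of 3 libraries (highest edgeR adjusted p = 0.0627). Among 354 genes with ZNF symbols, which mostly encode short-lived mRNAs of zinc finger proteins, 4 fell further (ZNF593, ZNF395, ZNF267 and ZNF770) and 1 fell less (ZNF768). ZNF593, ZNF395 and ZNF267 lost their calls without replicate 1 (edgeR adjusted p = 0.0524, 0.11 and 0.314). The median of these 354 genes was 0.08, with 201 above 0, and before adjustment 20 fell less and 14 fell further. For both lists, the shares over all genes were 0.17% called to fall less and 0.663% to fall further, or 2.31% and 4.72% before adjustment.

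No gene passed the edgeR test in 9 lists. These were the amino acid stress genes, the tRNA synthetases, DNA replication and repair, mitosis, the mRNA decay machinery, the small nucleolar RNA hosts, the cytosolic ribosome, glycolysis and the melanoma markers, and DESeq2 called none of their members either. At an unadjusted p under 0.05, 2.31% of all genes tested fell less and 4.72% fell further, or 3.85% and 3.6% under TMM. Below that p, 2 of 19 amino acid stress genes, 1 of 25 mitosis genes and 1 of 17 small nucleolar RNA hosts fell less, and none in these 3 lists fell further. ATF4, the transcription factor of the amino acid response, went from 3497, 2960 and 3246 to 1352, 1457 and 1237 normalised counts in siCTU2 cells and from 3107, 2947 and 2834 to 1291, 1368 and 1132 in siGL2 cells. The 3 h libraries of both conditions overlapped, and its interaction was -0.03 ± 0.14 (edgeR adjusted p = 1). DDIT4, a stress-induced inhibitor of mTORC1, had an interaction of 1.65 ± 0.41 that missed the threshold (edgeR adjusted p = 0.0632). Leaving out the library that went against its label from the scale gave 1.67 for DDIT4 with a call (edgeR adjusted p = 0.0468).

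In the same lists, 2 of 40 replication and repair genes, 1 of 18 synthetases and 2 of 72 ribosomal protein genes fell further at an unadjusted p under 0.05, and none of these fell less. These shares were near or below those of all genes. For the decay machinery the numbers were 1 that fell less and 2 that fell further of 38, and for glycolysis (18 genes) and the melanoma markers (12 genes) 0 in both directions. The medians of these 9 lists lay between -0.07 for the ribosomal protein genes, of which 62 of 72 were below 0, and 0.19 for the amino acid stress genes. Mitosis genes had a median of 0.07, with 20 of 25 above 0. The median of all genes itself lay between -0.10 and 0.10 over the scales tried. The list of markers of other cell types, of which 3 were tested, held no call (0 at an unadjusted p under 0.05, and none by DESeq2).

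Seed matches to the siCTU2 guides were counted in the canonical coding transcript (GENCODE, GRCh38), which 11108 of the 12975 tested genes had, as the DNA letters ATGACCA for siCTU2#1 and AAGGACT for siCTU2#2 on the sense strand. Of the 85 genes that fell further and had such a transcript, 56 (65.9%) had at least 1 match in the 3′ UTR, against 21.3% of the genes that were not called. In the coding region or 3′ UTR, 73 of 85 (85.9%) had a match, against 43.9%. Of the 21 genes that fell less and had a transcript, 0 had a match in the 3′ UTR and 3 had one in either region. A match is a description of letters, and its part in the change was not tested. The seed of siGL2 (TACTTCG) occurred in the 3′ UTR of 0 of 85 genes that fell further and 3 of 21 (14.3%) that fell less. Of those not called, 1.47% had it there. With the coding region included, it occurred in 3 of 85 (3.53%), 6 of 21 (28.6%) and 5.72%. The part of these matches was not tested either.

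Windows of 19 bases are shown for 6 of the named genes, to let the matches be compared with the siRNA. Letters are those of the sense strand of the mRNA as DNA, and capitals mark bases equal to the sense strand of the siRNA at the same position. The windows of AIFM2, BLOC1S2 and IDH1 lie in coding regions and are set against siCTU2#2, as are those of PHC2 and ELK3 in 3′ UTRs, while that of CKAP4 in its 3′ UTR is set against siCTU2#1.
AIFM2: tgGTGgACATGAAGGACTc
BLOC1S2: GtagGAACtTaAAGGACTT
IDH1: GCtTcAtgAccAAGGACTT
PHC2: GgtTGgAaATGAAGGACTT
ELK3: tgGccAcaATtAAGGACTc
CKAP4: tccaatttCTCATGACCAA
The windows lie at chr10:70123951-70123969 (minus strand, AIFM2), chr10:100280945-100280963 (minus, BLOC1S2), chr2:208239098-208239116 (minus, IDH1), chr1:33323671-33323689 (minus, PHC2), chr12:96267188-96267206 (plus, ELK3) and chr12:106238973-106238991 (minus, CKAP4) of GRCh38. AIFM2 and PHC2 shared 15 of 19 bases with siCTU2#2, BLOC1S2 shared 14 and IDH1 13, and ELK3 and CKAP4 shared 11 with their siRNA. CCT3 had 2 matches to the seed of siCTU2#1 in its coding region and none in its 3′ UTR. B3GNT5 had no match to either seed in its coding region or 3′ UTR.

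Over all tested genes with a transcript, the median interaction was -0.11 for the 2399 genes with a 3′ UTR match, -0.07 for the 2505 with a match in the coding region only and -0.04 for the 6204 with none. By replicate number the medians were -0.25, 0.03 and -0.13 with a 3′ UTR match and -0.15, 0.09 and -0.04 without any match, so that the matched genes were lower in each. Longer 3′ UTRs hold more matches by length alone. Within 3 classes of equal size, with short, middle and long 3′ UTRs, the medians were -0.11, -0.10 and -0.11 with a match and -0.04, -0.05 and -0.06 without. The share of genes that fell further was 0.98%, 2.3% and 2.53% with a match and 0.286%, 0.295% and 0.463% without. The share of 3′ UTR matches among the genes called to fall further stayed between 55.7% and 72.1% over the alternatives that made calls.

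**Figure D4:**
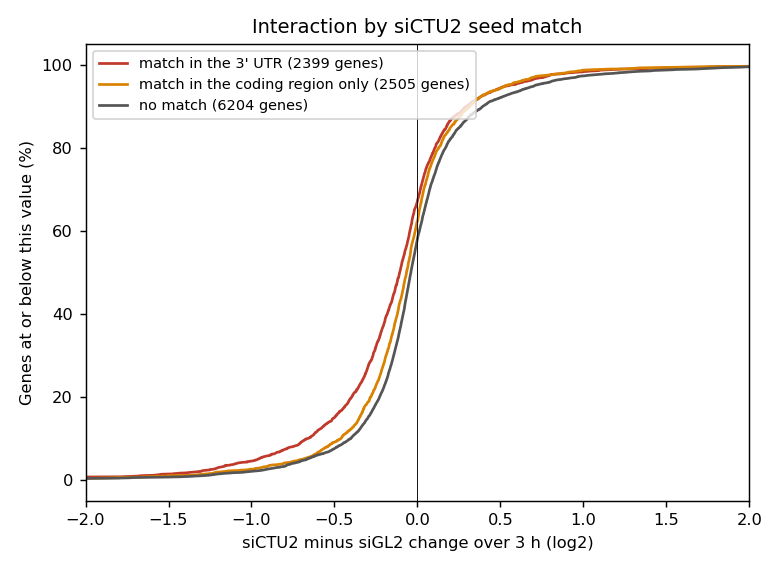
Cumulative share of genes (%) by interaction (siCTU2 minus siGL2 change over 3 h, log2), for 2399 genes with a siCTU2 seed match in the 3′ UTR, 2505 with one in the coding region only and 6204 with none. The curve of genes with a 3′ UTR match lies to the left, with a median of -0.11 against -0.04 for genes with no match.

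The interaction was also set against the codons read by the tRNAs that CTU2 modifies. Genes were put into 5 classes of equal size by the summed share of AAA, GAA and CAA among their codons. The median interactions from the lowest to the highest class were -0.01, -0.04, -0.07, -0.08 and -0.06. Of the genes that fell further, 11, 11, 18, 22 and 23 lay in these classes, and of those that fell less, 9, 7, 4, 0 and 1. Across 11088 genes, which are not independent replicates, Pearson's r between codon share and interaction was -0.06 and Spearman's rho -0.09. The median 3′ UTR length also rose from 885.5 bases in the lowest class to 1819 in the class next to the highest, and its part in the gradient was not tested.

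Genes were also put into 5 such classes by their decay in the cells given glutamine (pQ), which received no siRNA. Of the genes that fell less, 19 lay in the class with the fastest decay, 2 in the next and 1 in the middle class. Those that fell further were spread more evenly, at 26, 21, 17, 17 and 5 from the fastest to the slowest class.

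At 0 h, before any decay, the levels were compared in the TCHX arm, whose libraries are not those of the T arm. There, 2290 genes were higher (18.3% of those tested) and 2361 lower (18.9%) in siCTU2 cells. Of the 86 genes that fell further in the T arm, 79 were lower and 1 was higher, with a median difference of -1.36 (log2). Of the 22 that fell less, 16 were higher and 1 was lower. Not all named genes that were called differed in level. ZNF267 had a level difference of -0.03 (edgeR adjusted p = 0.877) and an interaction of -1.22 ± 0.25 (edgeR adjusted p = 0.016). Its call was lost when any 1 of 4 of the 12 libraries was left out (highest edgeR adjusted p = 0.0693). BAMBI (0.07), RPUSD2 (0.25) and MOCS3 (0.22), which fell less, did not pass for the level either (edgeR adjusted p = 0.579, 0.176 and 0.31). ID1 was lower at 0 h (-1.68) but fell less. KMT5A, a histone H4 methyltransferase, was 2.00 higher at 0 h (log2) and fell less afterwards (interaction 1.18 ± 0.21, edgeR adjusted p = 0.0041), but not without replicate 1 (1.16, edgeR adjusted p = 0.239).

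The 5 h libraries share their 0 h libraries with the 3 h comparison. At 5 h, 27 genes fell further (0.209% of those tested) and 2 fell less (0.0155%), or 24 and 8 under TMM. Of the 86 genes called to fall further at 3 h, 20 passed at 5 h, and of the 22 that fell less, 1 passed (IMP3). The interactions of CCT3 were -2.23 at 3 h and -4.15 at 5 h, those of AIFM2 -3.13 and -3.85, those of CKAP4 -1.12 and -2.05, and those of IMP3 1.11 and 1.77. These 4 passed the edgeR test at 5 h, whereas ELK3 (-2.47), PHC2 (-1.54), RPUSD2 (3.10), DUSP6 (1.85) and MCL1 (1.03) did not (edgeR adjusted p = 0.112, 1, 0.324, 0.15 and 1). ID1 had a value of -0.06 at 5 h (edgeR adjusted p = 1). The 86 genes had a median of -1.53 at 5 h, the 22 one of 1.44, and all genes one of -0.13. Both sets were chosen with the same 0 h libraries, so values of the same sign at 5 h are partly built in. The number of calls at 5 h was 0 without replicate 1, 0 without replicate 2 and 223 without replicate 3 (edgeR, and before adjustment 342, 476 and 1276 genes had a p under 0.05). At 5 h the stable genes made up 8.76% (siCTU2) and 7.78% (siGL2) of the counts in replicate 3. In replicates 1 and 2 they made up 4.2% to 4.3%. The part of this difference in the number of calls was not tested.

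With translation elongation stopped by cycloheximide, in libraries that the T arm does not share, 85 genes fell less (0.642% of those tested) and 20 fell further (0.151%). This balance depended on the scale, since under TMM 58 fell less and 46 fell further, and the median over all genes was -0.01 in place of 0.15. Of the 86 genes that fell further in the T arm, 71 were below 0 in the TCHX arm and 11 passed the test in that direction. None passed in the other direction. Their median was -0.28, while that of all genes was 0.15. Of all 13250 genes tested in the TCHX arm, 3949 were below 0 and 9301 above. CCT3 fell further there too (-3.03 ± 0.21, edgeR adjusted p = 9.761e-09), as did DDI2 (-1.85), G3BP2 (-1.40) and AIFM2 (-1.54). All 22 genes that fell less in the T arm were above 0, and 10 passed, among them RPUSD2 (2.59), IMP3 (1.54), MCL1 (1.39) and ZBTB7A (1.33). With the scale taken without the library that went against its label, these numbers were 11 and 8. The TCHX call counts also rested on replicate 1, without which only 9 genes passed.

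The difference between the arms was tested directly. In this test, 7 genes were lower in the T arm (0.0506% of those tested) and 0 were higher (0%), while at an unadjusted p under 0.05 there were 1348 lower and 171 higher by edgeR, the one tool run for it. This balance turned with the scaling: under TMM, 4 genes were called lower and 2 higher, and 492 were lower and 736 higher before adjustment. Of the 86 genes that fell further in the T arm, 5 were called, among them PHC2, KCTD5, ZNF593 and CKAP4. These 86 genes were chosen by T-arm values that also enter this difference. A lower value in the T arm is therefore partly built in. PHC2 had an interaction of -1.30 in the T arm and 0.14 in the TCHX arm, a difference of -1.44 ± 0.22 (edgeR adjusted p = 0.004046). With the scale taken without the library that went against its label, 2 genes were called in all and 1 of them was among the 86, and 0 were called without replicate 1 (469 before adjustment).

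**Figure D5:**
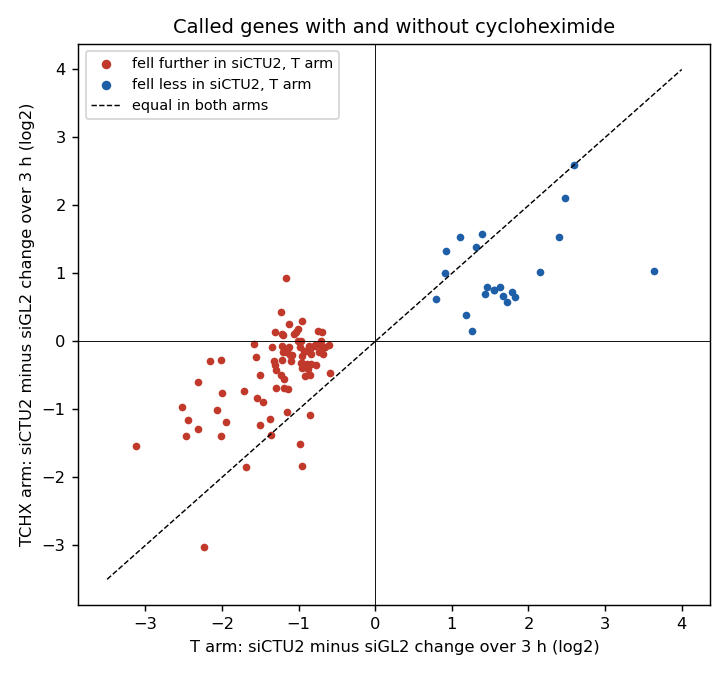
Interaction at 3 h (siCTU2 minus siGL2 change, log2) in the T arm (horizontal axis) and the TCHX arm (vertical axis) for the 108 genes called in the T arm; the dashed line marks equal values. Of the 86 genes that fell further, 71 lie below 0 in the TCHX arm, mostly nearer to 0 than in the T arm. All 22 that fell less lie above 0. Of all 13250 genes tested in the TCHX arm, 3949 were below 0 and 9301 above. The genes shown were chosen by their T-arm values, so values nearer to 0 in the TCHX arm are partly built in.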

How the data were processed

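QuantSeq 3′ mRNA libraries were made from cytoplasmic RNA. According to the submitters' processing notes, the authors used fastp 0.20.1, HISAT2 2.2.1 and HTSeq 0.13.5 with the genome build GRCh38.p13, and deposited raw counts per gene for 72 libraries (44659 names, of which 5088 mark extra copies). Here, the 12 T-arm libraries of siCTU2 and siGL2 at 0 h and 3 h were fitted with edgeR 4.0.16 (R 4.3.3). The quasi-likelihood test was two-sided, with group means, filterByExpr, Benjamini-Hochberg adjustment over all genes tested and a threshold of 0.05. Size factors were medians of ratios over stable genes after the study's methods. These rose at least 1.1-fold in CPM at 3 h or 5 h and had over 0.2 CPM at 0 h. The level at 0 h and the pQ decay used TMM scaling. The comparison and gene lists were chosen with earlier results of these data known. Named genes were the 12 with the smallest p per direction (at least 50 normalised counts at 0 h and the same sign in every replicate number), up to 4 per list, and a set of fixed genes; 1 of them is not reported here. Alternatives included TMM, DESeq2 1.42.0, no filter, a replicate block and leaving out libraries. The edgeR steps were tested on simulated data. The list of mitochondrial genome names matched 0 of 26 names and was not used here.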

Additional observations from a re-analysis of the deposited data

Results flagged for a closer look

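The interaction of 7 genes differed between the T and TCHX arms by a test of the difference itself (edgeR, 24 libraries). Among these, PHC2 (-1.44), KCTD5 (-2.10), ZNF593 (-1.55) and CKAP4 (-1.04, all log2) had fallen further in siCTU2 cells in the T arm. B4GALT5 differed by -1.35, with -0.04 in the T arm and 1.31 in the TCHX arm. EVI2A had a fitted value of -13.95 that gives no size, because its siCTU2 libraries of the TCHX arm at 0 h held 0 counts and the other groups had means of at most 9.50 normalised counts. The number of such genes was 2 with the scale taken without the library that went against its label and 0 without replicate 1 (469 before adjustment, p under 0.05).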

How the results depend on the processing

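The 108 calls at 3 h were within 1.5 times of that number under TMM (109), DESeq2 scaling (114), stable genes of the T arm (105) and a scale without the library that went against its label (86). They were 198 without a filter on low counts, 174 with the DESeq2 Wald test, 59 (33 fell less, 26 fell further) with the 8 stable genes that pass at both times and, chosen after seeing the data, 68 (18 and 50) when the ratios of those 8 genes were taken over the 12 libraries alone. The median over all genes was then 0.10 and -0.10. When the spread was estimated over 36 libraries, 0 genes were called by edgeR (414 before adjustment, p under 0.05). That fit holds the library that went against its label, and without it (35 libraries, chosen after seeing the data) 22 were called, all 22 of them among the 108. Why the larger fit still called fewer genes was not tested. Leaving out libraries gave 23 to 128 calls at 3 h, the lowest without replicate 1, medians of -0.12 to 0.00094, 0 to 223 calls at 5 h, 9 to 164 in the TCHX arm and 0 to 12 for the difference between arms, which was 2 on the scale without the library that went against its label. Where 1 library was left out, the group kept 2.

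With a replicate block, 196 genes were called at 3 h, 620 in the TCHX arm and 249 for the difference between arms. Same-numbered libraries of different groups deviated together in 17 of 18 pairs (r over 0.1, lowest 0.045), and each of the 12 correlated best with its own number. The column headers of the counts also give all libraries of a replicate number a shared prefix, without saying what it stands for. The main test did not use this pairing.

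Of 88 named genes, 32 were called, 0 of which reversed under any alternative run. Uncalled genes near 0 changed sign. ATF4 was 0.047 under TMM, 0.026 under DESeq2 scaling, 0.028 with stable genes of the T arm, 0.12 with those passing at both times, and -0.11 to 0.027 when libraries were left out. With stable genes passing at both times, PGK1 was 0.015, SOX10 0.033, S100B 0.047 and KRT18 0.0090. When libraries were left out, DKK1 ranged from -1.38 to 1.75, JUN from -0.62 to 0.064, CHEK1 from -0.45 to 0.042, CCNA2 from -0.012 to 0.49, SOX10 from -0.32 to 0.048 and CD68 from -0.50 to 0.070. Depth limits genes at a few counts after 3 h, such as CTU2 and AIFM2 in siCTU2 cells and RPUSD2 and MOCS3 in siGL2 cells.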
